A study of Mus musculus with 2 samples.

Results

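The genes described here were Mapt, which encodes tau, its relatives Map2 and Map4, the large microtubule-associated proteins Map1a and Map1b, the cold-stabilising protein Map6, and the stathmins Stmn1, Stmn2, Stmn3 and Stmn4. They were chosen by symbol, each symbol matched 1 gene identifier, and they made up 10 of the 55536 annotated genes in the deposited gene tables. All samples belonged to 1 group, the left cerebral cortex of 2 male mice labelled 5xFAD/CAST and aged 8 to 10 months, and each library was made from 300 ng of total RNA. The 5xFAD line carries human transgenes with familial Alzheimer disease mutations under the Thy1 promoter, which is active in neurons, and CAST is a wild-derived inbred strain. Mice that lack the transgenes were not analysed here. The values are therefore levels in 1 kind of cortex and differences between its animals, and no p-value was computed.

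Microtubules are polymers of tubulin that form tracks in axons and dendrites. Tau, Map2 and Map4 bind along the polymer through tandem repeats near the carboxyl end, and alternative exons add or remove repeats or parts of the projection domain that extends from it. Stathmins act on the other side of the balance, binding free tubulin dimers and promoting disassembly.

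The results on splice forms turned on a few exons, whose sequences were read from the annotated transcripts of mm10 in the 5′ to 3′ direction on the plus strand. The first set is the 93-base exon that encodes an extra microtubule-binding repeat in Map2 (chr1:66431527-66431619) and Map4 (chr9:110072613-110072705). Capitals mark the bases that are identical in both genes at the same position.
Map2 repeat exon: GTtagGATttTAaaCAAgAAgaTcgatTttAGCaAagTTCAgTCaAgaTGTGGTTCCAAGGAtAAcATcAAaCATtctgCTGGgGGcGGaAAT
Map4 repeat exon: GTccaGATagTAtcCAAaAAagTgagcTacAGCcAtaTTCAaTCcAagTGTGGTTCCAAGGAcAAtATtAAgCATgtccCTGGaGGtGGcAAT
Of the 93 bases, 59 were identical, or 63.4%. No window of 50 bases was shared between any of the 10 genes, so a read matching such a window without mismatches could belong to only 1 of them.

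The second set holds the amino-terminal insert exons of Mapt, exon 2 (chr11:104287123-104287209) and exon 3 (chr11:104289908-104289994), each of 87 bases, which lengthen the projection domain of tau. The exon is in capitals and the 14 bases on either side in the spliced transcript Mapt-201 are in lower case.
Mapt exon 2: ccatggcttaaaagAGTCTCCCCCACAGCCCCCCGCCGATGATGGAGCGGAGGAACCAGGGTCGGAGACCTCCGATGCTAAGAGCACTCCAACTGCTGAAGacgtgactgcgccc
Mapt exon 3: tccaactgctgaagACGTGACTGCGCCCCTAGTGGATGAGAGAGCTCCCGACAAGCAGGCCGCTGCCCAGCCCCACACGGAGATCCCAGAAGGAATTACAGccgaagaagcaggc
Where both are skipped, as in Mapt-204, the splice junction joins the exon ending at 104282480 to the exon starting at 104294859, with the downstream exon in capitals.
Mapt without exons 2 and 3: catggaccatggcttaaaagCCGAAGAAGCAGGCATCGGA
The third set is the pair of Map2 junctions that part its long and short forms. The long form reads from the exon ending at 66401521 into the large exon of 3741 bases (chr1:66412407-66416147), and the short form skips from the same exon to the one starting at 66420135, again in capitals.
Map2 into the large exon: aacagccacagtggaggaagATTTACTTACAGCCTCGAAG
Map2 past the large exon: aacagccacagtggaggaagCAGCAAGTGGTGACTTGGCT

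All 10 genes were expressed at high levels in both libraries. Levels are given in TPM, a relative unit that divides reads by transcript length and so allows comparison between genes. The mean TPM ran from 58.6 for Map6 to 423 for Stmn1, a 7.22-fold range. The median of the 10 means was 210.0 TPM, against a median of 3.91 TPM over the 22028 protein-coding genes of the table. Stmn1 ranked 83 and Map2 ranked 87 among those protein-coding genes, and Map6, the lowest of the set, ranked 1694.

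**Figure D1:**
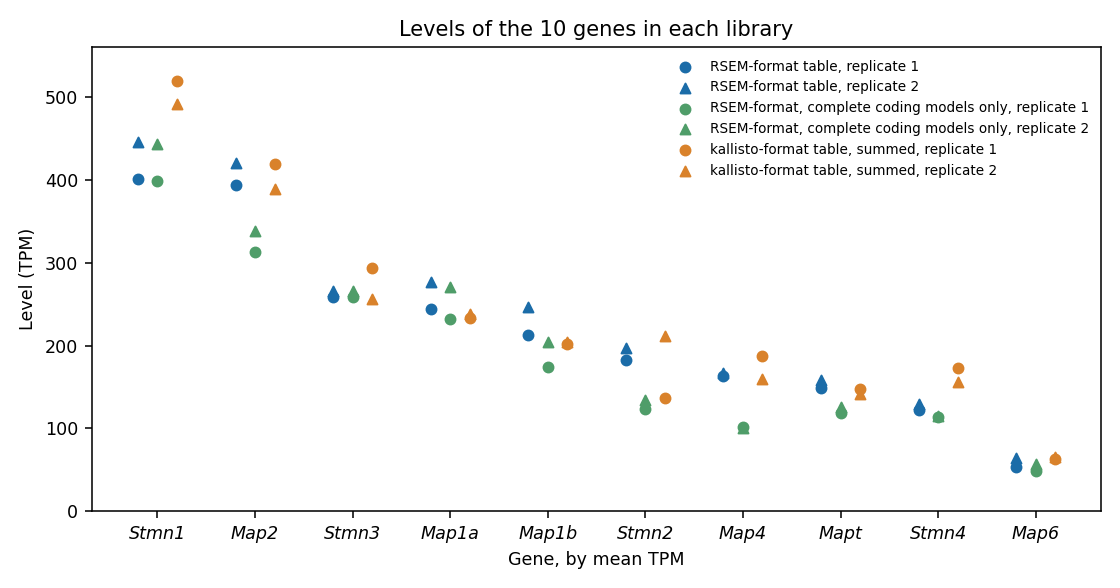
Level of each gene in TPM (vertical axis) in the RSEM-format gene table (blue), in the complete coding transcript models of the same table (green) and in the kallisto-format table summed per gene (orange). Circles are replicate 1 and triangles replicate 2. Stmn1 and Map2 stand above the other 8 genes and Map6 below them in every series of points, while Stmn2 has 2 distant kallisto-format points at 137 and 211 TPM.

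Map2, a dendritic protein of neurons, led the tau family with 394 TPM in replicate 1 and 421 in replicate 2 (mean 407 ± 18.9, SD, n = 2). Map4, which is also made by many cells other than neurons, was at 163 and 167 TPM, a mean of 165 ± 2.85 (SD, n = 2). Mapt was at 148 and 158 TPM, so the libraries of Mapt and Map4 did not overlap. Map2 stood above Mapt by 2.66 ± 0.00390-fold within each library (SD, n = 2), and by 2.79 ± 0.0604-fold in the kallisto-format tables.

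The MAP1 proteins are made as long precursors that are cut into a heavy and a light chain. Map1b, best known from growing axons, was at 213 and 247 TPM, a mean of 230 ± 24.1 (SD, n = 2). Map1a, its counterpart in mature neurons, was at 244 and 277 TPM, a mean of 260.4 ± 23.4 (SD, n = 2). Their libraries overlapped, yet within each animal Map1a was the higher, by 1.14-fold in replicate 1 and 1.12-fold in replicate 2. Map1a and Map1b also held more reads than any other member, 60074 and 52371 in replicate 1, and their transcripts are the longest of the set. Map6, which protects microtubules from disassembly in the cold, had 53.3 TPM in replicate 1 and 64.0 in replicate 2, below every other member in both.

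Among the stathmins, Stmn1, the cytosolic family member also abundant in dividing cells, had 401 TPM in replicate 1 and 445 in replicate 2. The others are membrane-bound proteins of neurons. Stmn3 had 259 and 266 TPM, Stmn2 had 182 and 197 TPM, and Stmn4 had 123 and 130 TPM. Those 3 did not overlap with one another in the RSEM-format tables. In the kallisto-format tables Stmn2, at 137 and 211 TPM, and Stmn4, at 173 and 156 TPM, did overlap. The dividing-cell markers Mki67 and Top2a were at 0.28 and 0.50 TPM on average, next to Stmn1 at 423 TPM. Of Stmn1's 50-base windows, 17.9% also occur in the annotated gene Gm11223, which was assigned 48.7 and 55.7 reads against 9548 and 9470 for Stmn1, and how well such reads were parted was not tested.

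In the order by mean TPM, Stmn1, Map2, Stmn3, Map1a, Map1b, Stmn2, Map4, Mapt, Stmn4 and Map6, 3 of the 9 neighbouring pairs had overlapping libraries. These were Stmn1 with Map2, Stmn3 with Map1a, and Map1a with Map1b. By mean, the kallisto-format tables kept the first 7 places and exchanged Mapt and Stmn4. There Stmn2 was ahead of Map4 only by 174.1 to 173.1 TPM, and its 2 libraries lay far apart. The sums over the 4 stathmins, 965 and 1039 TPM, exceeded those over Mapt, Map2 and Map4, 706 and 746 TPM, and those over Map1a and Map1b, 457 and 524 TPM.

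The annotation listed 91 transcripts for the 10 genes, 38 with a complete coding sequence, 22 with a coding sequence cut off at an end, and 31 without one. Because TPM divides by length, short models can carry much TPM on few reads. In Mapt, models without a complete coding sequence held 20.2% of the TPM but 1.71% of the reads, and in Map4 they held 38.8% of the TPM and 12.1% of the reads. In Stmn2 they held 32.2% of the TPM and 5.51% of the reads. Over complete coding models alone, Mapt was at 119 and 126 TPM, Map4 at 101.4 and 101.1, and Stmn2 at 123 and 134. The median of the 10 genes was then 159 TPM, and Map4 moved from the seventh place to the ninth, below Mapt and Stmn4.

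**Figure D2:**
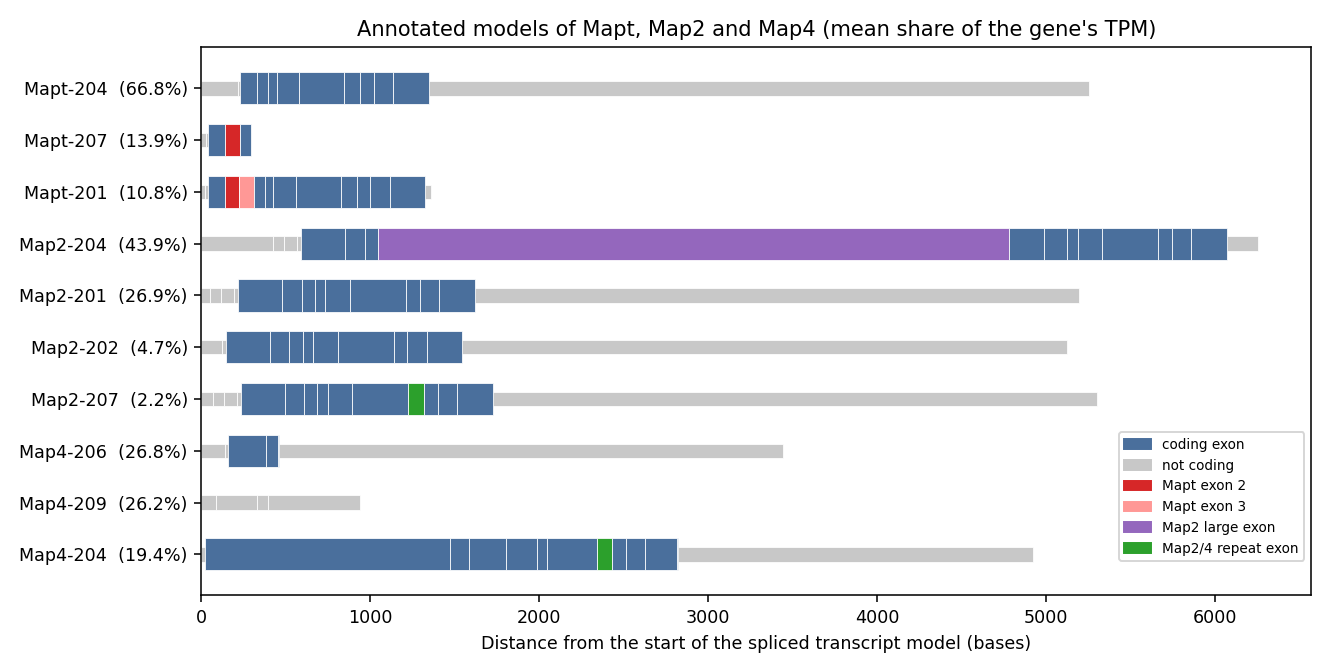
Annotated transcript models drawn along the spliced transcript in bases from its start, with coding exons thick and other exons thin, for Mapt, Map2 and Map4. The number beside each name is its mean share of the gene's TPM in the RSEM-format tables. Mapt-204, at 66.8%, is the one Mapt model drawn with a long end after the coding part, and Map2-204, at 43.9%, is the one Map2 model drawn with the large exon and has a short end.

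The leading Mapt transcript was Mapt-204, which encodes 372 amino acids and skips both insert exons. It took 65.8% of Mapt's TPM in replicate 1 and 67.8% in replicate 2. Mapt-201, which holds both inserts and encodes 430 amino acids, took 11.5% and 10.0%. The third model, Mapt-207, is 293 bases long, holds exon 2 without exon 3 and ends inside its coding sequence, and it took 13.2% and 14.7% on 94.5 and 100 reads. Among the complete coding forms alone, the 372-residue form held 83.7% ± 2.04 of the TPM and the 430-residue form 13.5% ± 1.29 (SD, n = 2).

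Of the TPM in Mapt models that span the insert region, 28.0% ± 0.821 held exon 2 and 12.8% ± 1.17 held exon 3 (SD, n = 2). The gap between the 2 exons came with incomplete models that hold exon 2 and skip exon 3, Mapt-207 at 19.6 and 23.2 TPM and Mapt-208 at 2.01 and 0.62 TPM. Without the incomplete models both exons were at 15.6% ± 1.34 (SD, n = 2), since every complete model holds both or neither. By reads rather than TPM the shares were 5.48% and 4.67%, because Mapt-204 is the longest of these models: 3906 bases of its last exon follow the coding sequence, against 35 bases in Mapt-201. Mapt-205, which also skips both inserts, has 251 bases there. Reads from further downstream can be assigned among complete coding models to Mapt-204 alone, and the part this plays in the shares was not tested. Complete models with 1 insert, which would encode a tau of intermediate length, were not among the 5 complete Mapt models of this annotation.

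Map2 and Map4 each have an alternative exon of 93 bases that adds a microtubule-binding repeat, shown above. It was held by 2.86% ± 0.0227 of the TPM of Map2 models that span it and by 93.5% ± 0.113 of those of Map4 (SD, n = 2). The kallisto-format tables gave 4.72% ± 0.691 for Map2 and 83.7% ± 2.29 for Map4 (SD, n = 2). Among models that span the exon, Map2 and Map4 thus lay far apart in both libraries and both kinds of table. The margin was many times the spread between the animals. For Map4, models with the exon held 63.3 TPM and models that skip it 4.44, of 163 TPM for the gene in replicate 1. In replicate 2 they held 62.4 and 4.26 of 167 TPM. The rest was in Map4 models that do not span the exon, the leading model among them, and the share leaves these out.

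The long form of Map2, with the large exon, is the high molecular weight protein of mature dendrites, and the short form without it is known best from developing brain and from glia. Models with the large exon held 57.8% of the TPM in replicate 1 and 57.1% in replicate 2 (mean 57.5% ± 0.476, SD, n = 2). The single complete model with it, Map2-204 of 1828 amino acids, held 55.0% ± 0.570 of the TPM of complete coding forms. The 467-residue short form, encoded alike by Map2-201, Map2-202 and Map2-205, held 41.6% ± 0.592, and the 498-residue form with the extra repeat held 2.73% ± 0.120 (SD, n = 2). At the level of TPM this was 171 and 187 for the long form against 131 and 139 for the short form, so the long form was higher in each animal.

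The annotated ends of these Map2 models differ. After the coding sequence Map2-204 has 184 bases of last exon and Map2-201 has 3577, so reads from further downstream could be assigned among complete models to short forms only, whichever form they came from. The part this plays in the 41.6% was not tested. The split among short-form models was itself unsettled: Map2-201 took 29.1% of the gene's TPM in replicate 1 and 24.8% in replicate 2, and the deposited posterior SD of its count was 557 and 809 reads. None of its 50-base windows is unique to it within the gene.

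**Figure D3:**
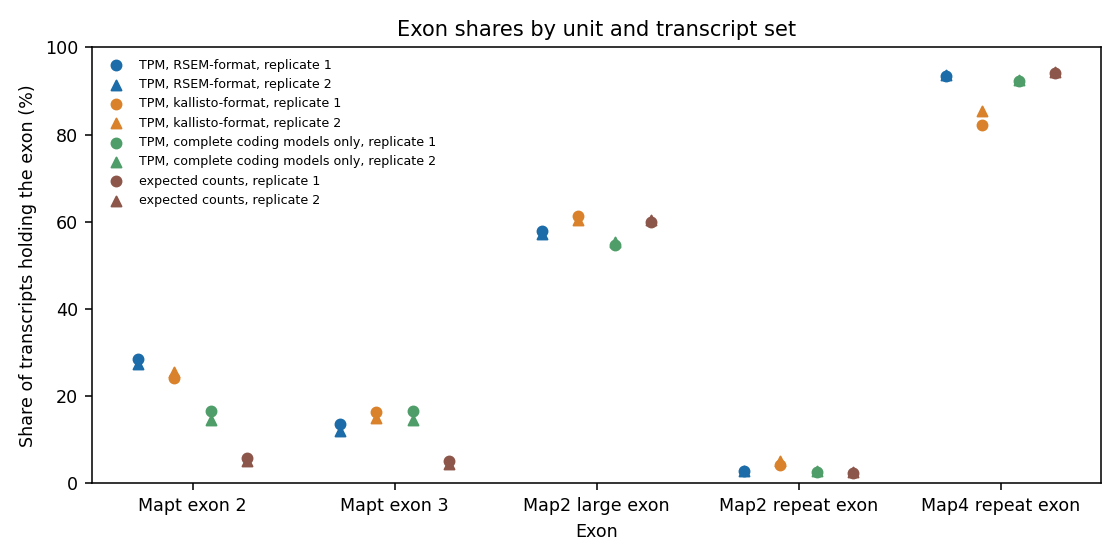
Share of the transcripts spanning each alternative exon that hold it, in percent, by table and transcript set (colours) and replicate (circles 1, triangles 2). The Mapt insert exons move with the unit, from 28.0% by TPM to 5.48% by expected counts for exon 2, while the plotted points of the Map2 large exon lie between 54.6% and 61.3% and the Map2 and Map4 repeat exons stay at opposite ends.

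Map4 had 3 models above a mean share of 10%. The leader was Map4-206, with 27.3% and 26.3%, whose coding sequence encodes 99 amino acids and is followed by 2989 bases of last exon, and 72.1% of its 50-base windows occur in no other Map4 model. The noncoding Map4-209 of 940 bases took 26.1% and 26.3%. Neither Map4-206 nor Map4-209 spans the repeat exon, so the share given above for that exon does not cover them. Map4-204, which encodes 933 amino acids and holds the repeat exon, took 19.3% and 19.6%. All 3 differed by at most 1 percentage point between the animals. Among complete coding forms the 99-residue form held 43.8% ± 0.250 and Map4-204 31.8% ± 0.934 (SD, n = 2). Other forms of 902 to 1125 residues made up the remainder.

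**Figure D4:**
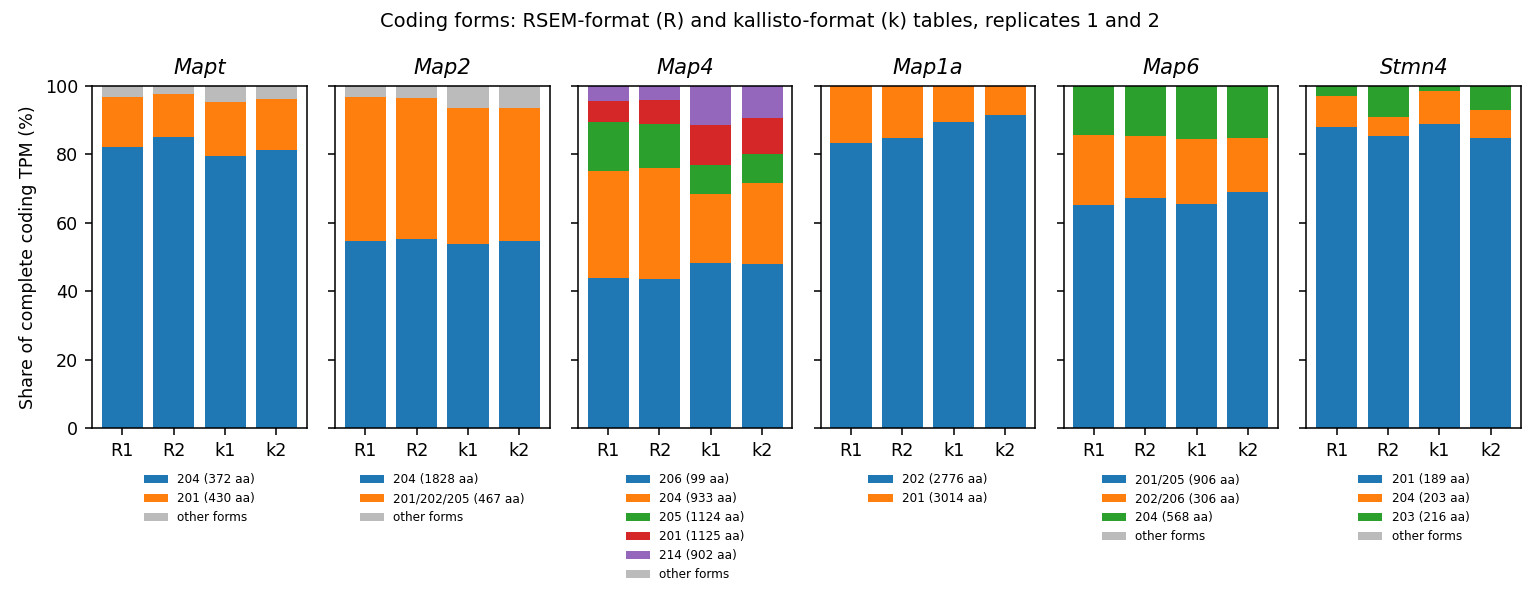
Shares of the complete coding TPM taken by each coding form of 6 genes, in the RSEM-format tables (R) and kallisto-format tables (k) of replicates 1 and 2; models with the same coding sequence are pooled, named by their transcript numbers and followed by their length in amino acids (aa). The bars of the 2 animals nearly coincide within a table for Mapt, Map2, Map1a and Map6, and Map4 and Map1a differ between tables.

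Map1a was split between Map1a-202 of 2776 amino acids, with 79.4% and 82.8% of the TPM, and Map1a-201 of 3014 amino acids, with 16.0% and 15.0%. Map1b was nearly all 1 coding form, Map1b-201 of 2464 amino acids, which held 81.1% and 82.2% of all its TPM and 99.2% ± 0.104 of the complete coding TPM (SD, n = 2). The noncoding model Map1b-206 took 13.2% and 9.34%.

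Map6 was the one member whose leading transcript changed between the libraries, Map6-205 with 55.2% in replicate 1 and Map6-201 with 52.4% in replicate 2. These models differ by 1 base in length and share their coding sequence, and the posterior SD of their counts lay between 550 and 623 reads. Pooled, the 906-residue form held 65.2% and 67.4% of the complete coding TPM, with no such change. A 306-residue form, from Map6-202 and Map6-206, held 20.3% and 17.9%, and the 568-residue form of Map6-204 held 14.5% and 14.8%.

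Stmn3 had a single annotated transcript of 180 amino acids, and Stmn1-201, which encodes 149 amino acids, took 97.5% and 97.4% of Stmn1's TPM. Stmn2-201, of 179 amino acids and the only coding model of Stmn2, took 67.4% and 68.2%, and the remainder was nearly all Stmn2-203, a noncoding model of 308 bases with 304 and 286 reads. The kallisto-format tables gave Stmn2-203 0% of Stmn2 in replicate 1 and 40.0% in replicate 2. This accounts for the distant pair of Stmn2 values in the plot of levels. Stmn4-201, of 189 amino acids, took 81.8% and 75.5% of Stmn4 and 58.3% and 54.9% in the kallisto-format tables, which gave 27.1% and 28.9% to Stmn4-209, a model of 418 bases listed at 0 in the RSEM-format tables. Over the 10 genes the median share of the leading transcript was 73.2%.

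All 10 genes had a higher TPM in replicate 2, by a median log2 difference of 0.10, but so did the table as a whole, with a median of 0.13 over the genes with at least 10 reads. After scaling read counts by TMM, which aligns the bulk of the genes, 4 of the 10 were higher in replicate 2, and 7 were with total counts or with spike-in totals. None of the 10 met the rule for a difference between the animals, which asks for at least 2-fold, at least 10 reads in 1 library and a counting interval, at a coverage of 0.999, that excludes equal levels. Of all 19484 genes tested, 1.22% met it. With the fold left out, the interval excluded equal levels for 5 of the 10, against 8.76% of all genes tested and 34.0% of the 1915 genes with at least as many reads as the least-read member.

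Those 5 differences were small. Map6 was higher in replicate 2 by 0.12 on the log2 scale (95% counting interval 0.06 to 0.18), on 4386 and 4650 reads. Map1b was higher there by 0.10 (0.08 to 0.12) and Map1a by 0.09 (0.07 to 0.10). Map4 was lower, with a log2 ratio of -0.12 (-0.16 to -0.09), as was Stmn3, at -0.09 (-0.14 to -0.04). After TMM scaling, Mapt differed by -0.01 (-0.05 to 0.02), within its counting error. Stmn4 was at -0.10 (-0.17 to -0.03), and the intervals of Map2, Stmn1 and Stmn2 included 0. The signs of the 5 genes held with the 3 other scalings and with kallisto-format counts, but with spike-in totals Stmn3 was at -0.01 (-0.06 to 0.04), within its counting error, and Map4 at -0.04 (-0.08 to -0.01). Mapt turned to 0.02 with total counts and 0.07 with spike-in totals, Map2 to 0.01 and 0.06, and Stmn2 to 0.03 and 0.08. With spike-in totals the intervals lay above 0 for Mapt (0.04 to 0.11), Map2 (0.04 to 0.08), Stmn1 (0.06 to 0.14) and Stmn2 (0.03 to 0.13). With kallisto-format counts those of Mapt (-0.07 to -0.0002) and Map2 (-0.07 to -0.03) lay below 0. With DESeq2 size factors that of Map2 (-0.05 to -0.01) did too. The interval of Stmn4 included 0 with total counts (-0.135 to 0.003) and with spike-in totals (-0.09 to 0.05). That of Stmn1 also lay above 0 with total counts (0.01 to 0.10).

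Cell type markers moved beside them. Of the 5 neuronal markers, 4 had a log2 ratio above 0, with Snap25 at 0.05 and Rbfox3 at 0.14, and the inhibitory neuron marker Gad1 was at -0.07. None of the 4 astrocyte, 4 oligodendrocyte and 3 microglial markers was above 0, and their medians were -0.12, -0.12 and -0.18. The oligodendrocyte precursor markers Pdgfra and Cspg4 were at -0.02 and -0.11. The endothelial markers were mixed, with Flt1 at 0.05, Cldn5 at -0.36 and Pecam1 at -0.22. All 4 choroid plexus markers were lower in replicate 2, with a summed level of 15.8 TPM in replicate 1 and 4.44 in replicate 2, and none of the 4 was at 0. All 4 met the 2-fold rule, with a median log2 ratio of -1.86. Of the 5 immature neuron markers, Eomes and Igfbpl1 also met it, at -2.77 on 31 and 4 reads and -1.82 on 41 and 11 reads, and the other 3, Dcx, Sox11 and Neurod1, did not. Their part in the differences of the 10 genes was not tested, and in bulk tissue fewer cells of a type and less RNA per cell cannot be told apart.

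**Figure D5:**
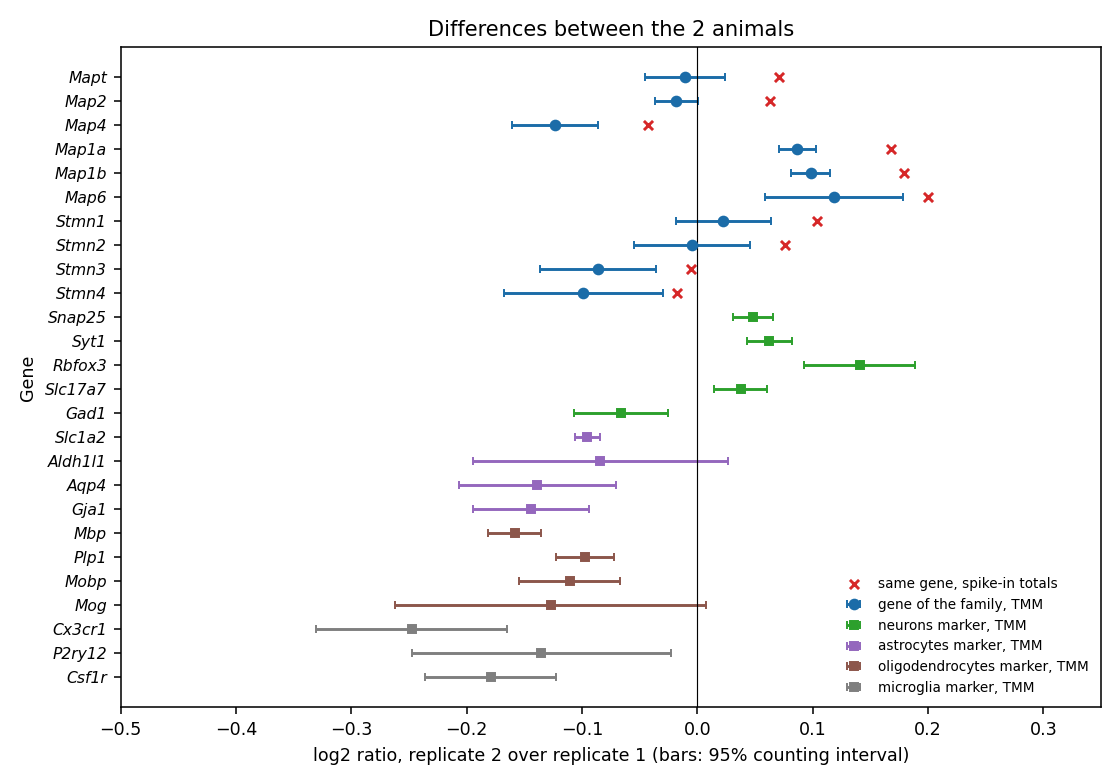
The log2 ratio of replicate 2 over replicate 1 after TMM scaling, with 95% counting intervals, for the 10 genes (blue circles) and markers of 4 cell types (squares); red crosses give the 10 genes scaled by spike-in totals. The 10 genes lie between -0.12 and 0.12 after TMM scaling, inside the range of the neuronal and glial markers.

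The neuronal list summed to 2287 and 2589 TPM, while the peripheral sensory neuron markers Prph and Scn10a were at 0.40 and 0.06 TPM on average. The muscle markers Acta1 and Ckm were at 8.51 and 3.99 TPM on average, with a sum of 11.2 TPM in replicate 1 and 13.8 in replicate 2, and their part in the results was not tested. Libraries held 33925221 and 32380330 reads on genes, of which the 10 genes took 0.635% and 0.666%.

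Among 42 other microtubule regulators, 39 reached 1 TPM in both libraries and none met the 2-fold rule. The median of the 42 was 31.8 TPM. By list, 14 of 15 other structural proteins were detected, all 4 of the doublecortin family, all 12 plus-end proteins, all 3 minus-end proteins and 6 of 8 severing enzymes, whose median was lowest at 3.88 TPM. The 5 highest were Dclk1, a doublecortin-like kinase, at 296 ± 30.7 TPM, Clip3 at 195 ± 13.2, Tppp, which promotes tubulin polymerisation in oligodendrocytes, at 135 ± 4.98, Map7d1 at 112 ± 4.70 and the end-binding protein Mapre2 at 97.8 ± 7.92 (SD, n = 2). Only Dclk1 reached the mean of Map1a or Stmn3.

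Genes whose span overlaps a member and that reached a mean of 1 TPM numbered 4. Ppip5k1, on the strand opposite to Map1a, was at 48.1 and 53.1 TPM and shares 1.83% of Map1a's 50-base windows in antisense. The strand setting of the counting is not given in the sources used here, so reads from that stretch could not be told apart if strand was not used. On the strand of the member, Gm42433 within Map4 was at 5.29 and 6.94 TPM, Gm45591 within Map6 at 2.59 and 2.41, and 5330431K02Rik within Map1b at 2.17 and 2.48. No overlapping gene reached a mean of 1 TPM at Mapt, Map2 or the stathmins, the nearest being Gm25411 at Map2, with 1.57 TPM in replicate 1 and 0 in replicate 2.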

How the data were processed

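Each library came with a gene table and a transcript table in the format of RSEM and a transcript table in the format of kallisto, per the file headers. The authors deposited expected counts, TPM, the percent of its gene that each transcript takes and, per transcript, posterior SDs of the count, here called by that name. The build, mm10, and the annotation, M21, are named in a deposited description; programs, versions and the strand setting were not given in the sources used here. All 91 transcripts had a deposited effective length 100 bases under their length. Transcripts were classed with the annotation of the same build. Exon shares use transcripts that hold the exon or have exons on both sides of it. Ratios used expected counts rounded to whole numbers, TMM factors from edgeR 4.0.16 and 0.5 added reads; intervals are Clopper-Pearson and, like all counting errors here, leave out the spread between animals. The rule for a difference between the animals was tested on simulated counts, and the counting interval against a reference calculation. Levels and shares were not tested on simulated data. DESeq2 1.42.0 size factors, total counts, spike-in totals, kallisto-format counts, no count minimum and a 1.5-fold threshold were alternatives. All 10 genes, the transcripts with a mean share of at least 10%, the 5 highest other regulators and overlapping genes at 1 TPM or more were named by rule; the other coding forms and markers were named after their values were seen. The genes, lists and tests were chosen with earlier results of these data known. The labels give separate biosamples with the same strain, sex, age range and tissue, without saying more about the animals. The libraries were taken as 2 animals on that basis. Mice of the CAST cross differ in sequence from the reference strain of mm10, and the effect on assignment was not tested. A further Mapt splice result is not reported here.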

Additional observations from a re-analysis of the deposited data

How the results depend on the processing

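With the kallisto-format tables in place of the RSEM-format ones, the median level of the 10 genes was 189 TPM, the Mapt exon 2 and exon 3 shares were 24.9% and 15.7%, the Map2 large exon share was 60.9%, and the repeat exon shares of Map2 and Map4 were 4.72% and 83.7%. With expected counts in place of TPM these 5 shares were 5.48%, 4.67%, 60.2%, 2.53% and 94.3%. With complete coding models only, an alternative chosen after seeing the data, they were 15.6%, 15.6%, 55.0%, 2.73% and 92.4%, and the median level was 159 TPM. Rescaled over nuclear protein-coding genes, the median level was 481 TPM. The expected-count alternative for the Mapt exons and all alternatives for the repeat exons were also chosen after seeing the data.

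Leaving out either replicate gave 198 to 222 TPM for the median level, 27.4% to 28.6% for Mapt exon 2, 11.95% to 13.6% for exon 3, 57.1% to 57.8% for the Map2 large exon, 2.84% to 2.88% and 93.4% to 93.6% for the repeat exons of Map2 and Map4, and 71.8% to 73.4% for the leading transcript. The count of members that differed between the animals was 0 under all 6 alternatives. The median log2 ratio of the members was -0.01, and it was 0.0734 with spike-in totals, where the median of all genes was 0.08.

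No paired analysis was possible because there was 1 group. With 2 animals, no read-level data and models whose ends differ, the shares rest on the annotation. The least-read member had 3542 and 3230 reads, and Mapt-207, which bears on the exon 2 share, had 94.5 and 100.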
